A study of Mus musculus with 6 samples.

Results

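Satb1, Gata3 and Klf4 were examined together with 7 further transcription factors of epidermal and hair lineages, Trp63, Grhl3, Ovol1, Dlx3, Hoxc13, Foxn1 and Msx2, in back-skin epidermis of K14ΔNLef1 and wild type mice. A probe set, the group of probes that reads 1 stretch of a gene on an exon array, was taken only if its annotation named exactly 1 of these genes. All 10 genes were measured, by 95 of 109751 such probe sets, and they are 10 of 11280 genes in the table. Satb1, Gata3 and Klf4 were selected on their measured difference, being lower in K14ΔNLef1, so their differences are given as a description with no test. The other 7 were named for their roles in skin.

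The samples were unfractionated keratinocytes, the main cell type of the epidermis, from female mice aged 9.5 weeks on a C57BL6/CBA background. K14ΔNLef1 epidermis (3 samples) was compared with wild type epidermis (3 samples), each hybridised to 1 array. In K14ΔNLef1 mice the keratin 14 promoter, active in the basal layer of the epidermis and the outer root sheath of the follicle, drives a Lef1 protein without its N-terminus. That end of Lef1 binds beta-catenin, the co-activator through which Wnt signals act on Lef1 target genes. The labels call the cells unfractionated while their protocol mentions cell sorting before RNA extraction, and the transgenic line and the number of animals per sample are not stated in the sources used here.

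These 10 factors act at different points of the same tissue. Trp63 encodes p63, which sustains the basal layer and the commitment to stratified epithelium. Satb1, a chromatin organiser, folds the region that holds the genes of the cornified layer and is known as a p63 target, and it is also abundant in developing T cells. Gata3, a zinc finger factor, specifies the inner root sheath of the hair follicle and takes part in barrier formation, and it is a master factor of T cell and innate lymphoid lineages as well. Klf4 is a zinc finger factor of the suprabasal layers that the skin barrier requires. Grhl3, Ovol1 and Dlx3 act in differentiation and barrier formation, and Hoxc13, Foxn1 and Msx2 act in the hair shaft and its matrix.

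The windows before the annotated transcript starts of the 3 genes with lower values are shown because the transgene product binds DNA and Klf4 belongs to a family that binds CACCC boxes. The 250 bases upstream of a start were taken from RefSeq on build GRCm38.p6, on the minus strand, on which all 3 genes lie. For Satb1, with 5 annotated starts, the outermost one is shown (chr17:51833291-51833540). For Gata3 the only start analysed is shown (chr2:9878601-9878850), and for Klf4 likewise (chr4:55532476-55532725). The Gata3 window lies inside the annotated span of the gene (chr2:9857078-9887953), which extends further upstream. Capitals mark CACCC on either strand, so that overlapping or adjoining matches form 1 run.
Satb1: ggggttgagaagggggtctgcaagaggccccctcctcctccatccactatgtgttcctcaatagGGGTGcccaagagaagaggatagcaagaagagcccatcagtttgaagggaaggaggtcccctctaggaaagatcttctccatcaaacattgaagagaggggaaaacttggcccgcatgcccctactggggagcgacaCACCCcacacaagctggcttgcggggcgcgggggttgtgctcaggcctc
Gata3: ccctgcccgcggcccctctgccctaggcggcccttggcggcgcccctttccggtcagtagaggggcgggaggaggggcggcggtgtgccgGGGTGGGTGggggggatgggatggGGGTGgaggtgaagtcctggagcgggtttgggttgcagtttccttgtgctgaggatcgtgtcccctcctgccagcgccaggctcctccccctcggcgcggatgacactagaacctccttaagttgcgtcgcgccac
Klf4: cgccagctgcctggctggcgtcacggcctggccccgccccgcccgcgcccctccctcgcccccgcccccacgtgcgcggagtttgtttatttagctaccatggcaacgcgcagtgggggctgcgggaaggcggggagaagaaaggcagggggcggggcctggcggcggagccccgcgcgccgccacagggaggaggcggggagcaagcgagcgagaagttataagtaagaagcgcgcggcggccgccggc

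The Satb1 window held 2 CACCC matches, the Gata3 window 3 and the Klf4 window 0, where 52.0% of all 32851 such windows held at least 1. The core of the TCF and LEF motif, CTTTGA or CTTTGT on either strand, was found in none of these 3 windows and in 27.6% of all windows. It was present before the fourth and the fifth Satb1 start, whose windows overlap and share a single match (chr17:51812185-51812214), and before the Grhl3 start (chr4:135573816-135573845). The stretches of 30 bases around these matches are shown with the core in capitals.
Satb1: taacgggttccgCTTTGTttttacgactcc
Grhl3: acagagatttccCTTTGAgccaagtacctg

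The Foxn1 and Msx2 windows held no such core, and the windows of Trp63, Ovol1, Dlx3 and Hoxc13 were not analysed here. A match describes the letters of these windows and nothing about binding.

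The targeted gene was checked first. The gene value, the mean log2 intensity over a gene's probe sets, was 11.11, 11.13 and 11.24 for Lef1 on the K14ΔNLef1 arrays, against 5.81, 7.02 and 6.26 on the wild type arrays. Every array therefore went with its label. The keratins Krt5, Krt14 and Krt10, which define basal and suprabasal keratinocytes, lay at or above percentile 99.7 of all gene values on every array, a rough guide since probes differ in brightness. K14ΔNLef1 replicate 1 stood apart from the rest: its correlation with the other arrays over all probe sets was 0.824 to 0.843, while the other arrays correlated at 0.904 to 0.935 among themselves. Its median intensity was 154.2, against 190.0 to 203.2 on the other arrays. The difference of each factor is therefore given with and without it. The number of arrays limits the precision, and in samples of many cells, fewer cells of a type and less RNA per cell cannot be told apart.

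Satb1 was the lowest of the 3 chosen genes relative to wild type. Its gene value was 6.25, 6.82 and 6.53 on K14ΔNLef1 replicates 1, 2 and 3, and 9.85, 9.32 and 9.48 on wild type replicates 1, 2 and 3. The genotypes did not overlap, and the highest K14ΔNLef1 array lay far below the lowest wild type array. The means were 6.53 ± 0.29 in K14ΔNLef1 and 9.55 ± 0.27 in wild type (SD, n = 3 each), a log2 difference of -3.02 (SE 0.22), or 8.11-fold lower in K14ΔNLef1. It ranked 8 from the lowest difference among 11280 genes, between Zfp455 at -3.06 and Vegfd at -2.94. Without K14ΔNLef1 replicate 1 the difference was -2.88.

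Gata3 was lower by less, with less spread among wild type arrays. Its gene value was 9.74, 10.17 and 10.17 on the K14ΔNLef1 arrays, and 11.40, 11.40 and 11.32 on the wild type arrays. Again no K14ΔNLef1 array reached a wild type array, and replicate 1 was the lowest of the 3. The means were 10.03 ± 0.25 in K14ΔNLef1 and 11.37 ± 0.05 in wild type (SD, n = 3 each), a log2 difference of -1.35 (SE 0.19), or 2.54-fold lower in K14ΔNLef1. The difference ranked 102 from the lowest and was -1.20 without K14ΔNLef1 replicate 1.

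Klf4 showed the smallest difference of the 3. Its gene value was 8.12, 8.40 and 8.78 on the K14ΔNLef1 arrays, and 9.24, 9.46 and 9.32 on the wild type arrays. The groups did not overlap, though K14ΔNLef1 replicate 3 came near the wild type arrays. The means were 8.43 ± 0.33 in K14ΔNLef1 and 9.34 ± 0.11 in wild type (SD, n = 3 each), a log2 difference of -0.91 (SE 0.21), or 1.88-fold lower in K14ΔNLef1. It ranked 311 from the lowest and was -0.76 without K14ΔNLef1 replicate 1.

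**Figure D1:**
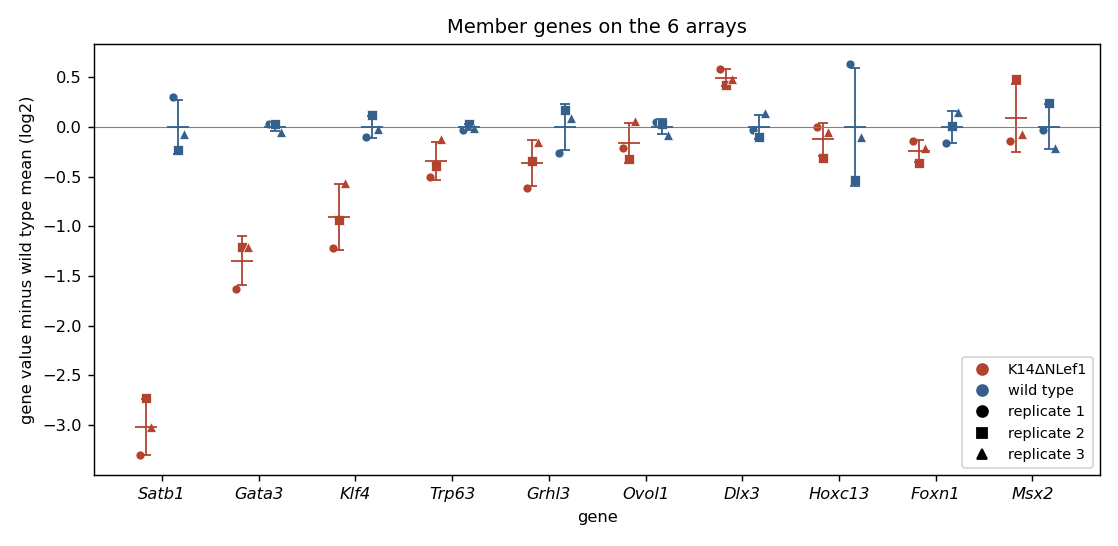
Gene value of each of the 10 factors minus its wild type mean (log2, vertical axis) for the 3 K14ΔNLef1 arrays (red) and the 3 wild type arrays (blue), with symbols for replicates and bars for mean ± SD. Satb1, Gata3 and Klf4 stand at -3.02, -1.35 and -0.91 on average, while the means of the other factors run from -0.37 to 0.49.

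Values were next read by probe set. Of 11 Satb1 probe sets, 10 were lower in K14ΔNLef1 without overlap between the genotypes, with log2 differences of -4.22 to -2.77. Among all probe sets 9.46% were lower without overlap, and no more is read from this count since the gene was chosen for its difference. Probe set 5531749 read 7.91, 9.19 and 8.68 on the K14ΔNLef1 arrays, and 11.69, 11.40 and 11.74 on the wild type arrays.

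The exception in Satb1 was probe set 4437725. It read 9.76, 8.54 and 8.81 on the K14ΔNLef1 arrays, and 8.42, 8.38 and 8.90 on the wild type arrays. These values overlap, K14ΔNLef1 replicate 1 was the highest of the 6, and the difference of 0.47 became 0.11 without that array. Where in the gene this probe set lies was not analysed here. With it left out of the gene value, a choice made after its values were seen, Satb1 averaged 6.28 ± 0.38 in K14ΔNLef1 and 9.65 ± 0.31 in wild type (SD, n = 3 each), a difference of -3.37.

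All 11 Gata3 probe sets were lower in K14ΔNLef1, with differences of -1.92 to -0.59, and 10 of them without overlap. Over all probe sets 57.5% were lower and 9.46% were lower without overlap. Gata3 too was chosen for its difference, so no more is read from these counts. Probe set 5286165 read 12.35, 12.59 and 12.36 on the K14ΔNLef1 arrays, and 13.23, 13.32 and 13.10 on the wild type arrays. The largest difference was that of probe set 4436360, which read 7.08, 8.10 and 8.03 on the K14ΔNLef1 arrays, and 9.57, 9.69 and 9.72 on the wild type arrays. The 1 that overlapped, probe set 4498811, averaged 8.85 ± 0.33 in K14ΔNLef1 and 9.44 ± 0.23 in wild type (SD, n = 3 each). In probe set 5492424, K14ΔNLef1 replicate 1 read 10.15 while replicates 2 and 3 read 12.07 and 11.82, against 12.37 to 12.62 in wild type.

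Of 5 Klf4 probe sets, 4 were lower without overlap, with differences of -1.25 to -0.99, where 9.46% of all probe sets were lower without overlap. Klf4 too was chosen for its difference, so no more is read from this count. Probe set 4571010 read 10.22, 11.05 and 10.97 on the K14ΔNLef1 arrays, and 11.96, 11.84 and 11.88 on the wild type arrays. Probe set 5176628 differed by -1.25, with 7.29 on K14ΔNLef1 replicate 1 and 8.54 and 9.21 on replicates 2 and 3, against 9.38 to 9.85 in wild type. Without K14ΔNLef1 replicate 1 its difference was -0.72. Probe set 4894339 overlapped, with 8.03, 7.13 and 7.11 on the K14ΔNLef1 arrays, and 7.20, 7.71 and 7.70 on the wild type arrays.

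**Figure D2:**
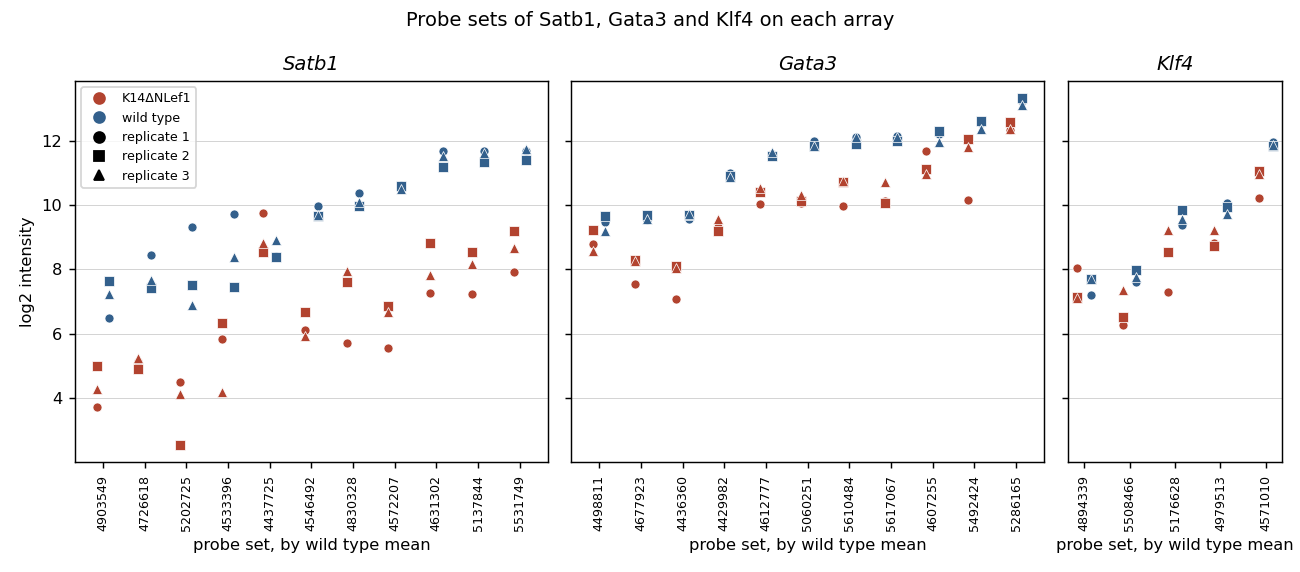
Log2 intensity (vertical axis) of every probe set of Satb1, Gata3 and Klf4, ordered by wild type mean, on the K14ΔNLef1 arrays (red) and the wild type arrays (blue), with a symbol for each replicate. In 10 of 11, 10 of 11 and 4 of 5 probe sets all red points lie below all blue points, against 9.46% of all probe sets. Satb1 probe set 4437725 is the one whose K14ΔNLef1 mean is higher.

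None of the 7 other factors passed the test over all genes (limma, adjusted p at or under 0.05), where 1.16% of all genes did. By an unadjusted limma p under 0.05, 1 of the 7 would be counted, Dlx3, against 11.8% of all genes, and limma with trend and robust settings called 0. Their median change, K14ΔNLef1 minus wild type, was -0.159, with 5 of 7 lower, beside a median of -0.0543 over all genes with 57.2% lower. With equal array medians the median of the 7 was -0.0508 and that of all genes 0.0542, and without K14ΔNLef1 replicate 1 they were -0.180 and -0.0171. A p above the threshold does not show that a gene is unchanged, so the 95% interval of each difference is given.

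Trp63, the basal layer regulator, had a gene value of 10.92, 11.03 and 11.30 on the K14ΔNLef1 arrays, and 11.40, 11.46 and 11.42 on the wild type arrays. The groups did not overlap, as in 11.8% of all genes in this direction, but the gap to K14ΔNLef1 replicate 3 was small. The difference was -0.34 (95% interval -0.75 to 0.06, limma adjusted p of 0.512). All 19 Trp63 probe sets had a lower mean in K14ΔNLef1, as 57.5% of all probe sets did, with a median of -0.23. Of these, 11 were lower without overlap, against 9.46% of all probe sets. Without K14ΔNLef1 replicate 1, probe set 4776984 was higher, at 0.27, and the others were lower. In probe sets 4478686 and 4689710, K14ΔNLef1 replicate 1 stood at -1.74 and -2.09 relative to the wild type mean, while replicate 3 stood at -0.22 and -0.23. Without replicate 1 the Trp63 difference was -0.26 (limma adjusted p of 0.498).

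Dlx3, a homeobox factor of differentiation and hair, read 7.61, 7.44 and 7.50 on the K14ΔNLef1 arrays, and 6.99, 6.92 and 7.16 on the wild type arrays. Every K14ΔNLef1 array was above every wild type array, as in 6.91% of all genes in this direction. The difference of 0.49 (95% interval 0.11 to 0.87) gave an adjusted p of 0.295 by limma. Leaving out K14ΔNLef1 replicate 1 gave 0.44. Of its 7 probe sets, 3 were higher without overlap, where 5.11% of all probe sets were, and the largest of them, probe set 4531411, read 8.66, 8.62 and 8.78 on the K14ΔNLef1 arrays, and 7.16, 6.88 and 8.34 on the wild type arrays. No probe set of Dlx3 passed (smallest limma adjusted p of 0.451), where 0.19% of all probe sets did. With array weights, which weight each array by its estimated spread, Dlx3 passed with a limma adjusted p of 0.0482. In that setting 1296 of 11280 genes passed, against 131 in the main fit. In the other alternatives the limma adjusted p of Dlx3 was 0.18 to 0.654.

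Grhl3, a grainyhead factor that the skin barrier requires, read 7.92, 8.19 and 8.38 on the K14ΔNLef1 arrays, and 8.27, 8.70 and 8.62 on the wild type arrays. The groups overlapped, with K14ΔNLef1 replicate 3 above wild type replicate 1. The difference was -0.37 (95% interval -0.84 to 0.10, limma adjusted p of 0.558), and -0.25 without K14ΔNLef1 replicate 1. Of 17 Grhl3 probe sets, 2 were lower without overlap, near the 9.46% of all probe sets, and 15 overlapped. In probe set 4791855, K14ΔNLef1 replicate 1 read 7.98, against 10.24 to 11.06 on the other arrays of both genotypes.

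Ovol1, a zinc finger factor under Wnt control that restrains growth as cells differentiate, read 6.99, 6.88 and 7.27 on the K14ΔNLef1 arrays, and 7.26, 7.24 and 7.12 on the wild type arrays. The groups overlapped, and the difference was -0.16 (95% interval -0.57 to 0.25, limma adjusted p of 0.780), and -0.13 without K14ΔNLef1 replicate 1. All 7 Ovol1 probe sets overlapped, where 9.46% of all probe sets were lower and 5.11% higher without overlap. Ovol1 lay at percentile 39.1 to 50.2 of all gene values on an array, which limits what the overlap can show.

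The 3 hair factors had overlapping groups. Among all gene values on an array, Hoxc13 lay at percentile 19.8 to 49.6, Foxn1 at 20.8 to 33.8 and Msx2 at 31.2 to 51.3. These lower levels limit what the overlap can show. Hoxc13, which activates hair keratins, read 6.62, 6.31 and 6.57 on the K14ΔNLef1 arrays, and 7.26, 6.09 and 6.52 on the wild type arrays. Wild type arrays held both the highest and the lowest value, and the difference was -0.12 (95% interval -0.79 to 0.55, limma adjusted p of 0.909). In Hoxc13 probe set 4978759, wild type replicate 1 read 9.16, against 6.19 to 6.93 on the other arrays. The Hoxc13 difference was 0.20 without wild type replicate 1, and -0.18 without K14ΔNLef1 replicate 1.

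Foxn1, the factor missing in nude mice, read 6.42, 6.20 and 6.35 on the K14ΔNLef1 arrays, and 6.40, 6.58 and 6.72 on the wild type arrays. Its difference was -0.24 (95% interval -0.65 to 0.16, limma adjusted p of 0.659), and -0.29 without K14ΔNLef1 replicate 1. Msx2, a homeobox factor of the hair matrix read by 2 probe sets, read 6.68, 7.30 and 6.75 on the K14ΔNLef1 arrays, and 6.79, 7.06 and 6.61 on the wild type arrays. Its difference was 0.09 (95% interval -0.43 to 0.62, limma adjusted p of 0.910). Leaving out K14ΔNLef1 replicate 1 gave 0.21 for Msx2. The intervals of Foxn1 and Msx2 span 0, and neither shows that the gene is unchanged.

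**Figure D3:**
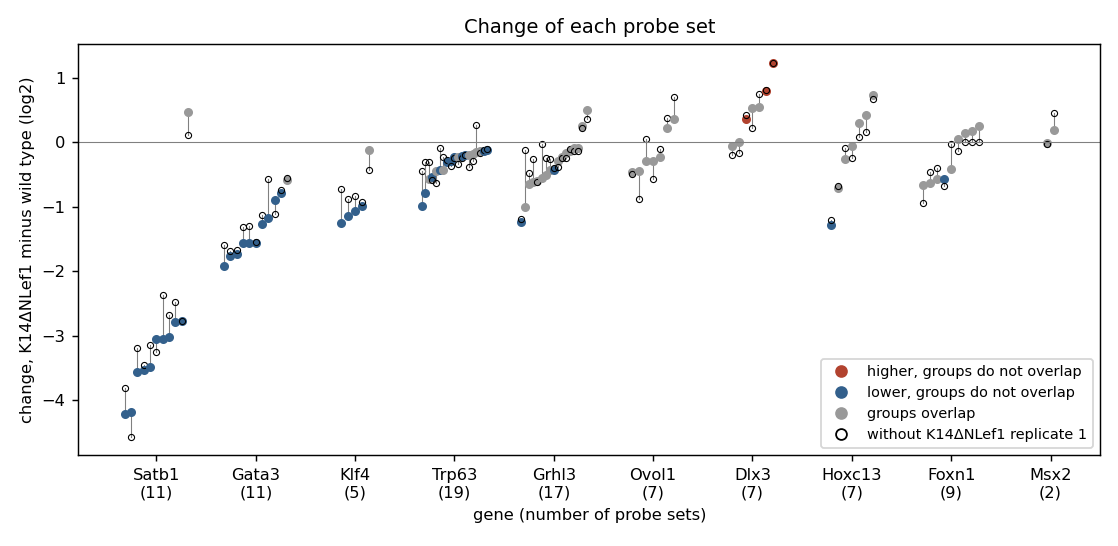
Change of each probe set (K14ΔNLef1 minus wild type, log2, vertical axis) for the 10 factors, with the number of probe sets in brackets. Filled points use all arrays and are coloured where the groups do not overlap, and open points leave out K14ΔNLef1 replicate 1. Satb1 spans -4.22 to 0.47, Gata3 -1.92 to -0.59 and Klf4 -1.25 to -0.12, while Dlx3 holds the 3 probe sets that are higher without overlap.

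The close relatives of these factors were read next, from a list that holds other members of each gene family. Of 22 measured, 1 passed, where 1.16% of all genes did. It was Hoxc8, a homeobox gene of the same cluster as Hoxc13, which rose. Hoxc8 read 8.58, 8.51 and 8.82 on the K14ΔNLef1 arrays, and 7.32, 7.60 and 7.59 on the wild type arrays. All 3 K14ΔNLef1 arrays lay above all wild type arrays, with a difference of 1.13 (SE 0.18, limma adjusted p of 0.0282). With 1 array left out, its adjusted p was 0.0255 to 0.156 and only the omission of K14ΔNLef1 replicate 1, among the 6 single omissions, kept it past the threshold. The other measured Hoxc genes of the list, Hoxc12, Hoxc10 and Hoxc9, differed by 0.22, 0.26 and 0.27 and did not pass.

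Among 5 other Gata genes none passed, with differences of -0.21 for Gata6 to 0.21 for Gata2 and a smallest limma adjusted p of 0.688. None had an unadjusted limma p under 0.05. Among 12 other Klf genes of this list and the list of barrier factors none passed limma. An unadjusted limma p under 0.05 was found for 4 of the 12, against 11.8% of all genes. Klf12 differed by -1.18 (limma adjusted p of 0.0660), with 6.53, 6.74 and 5.94 on the K14ΔNLef1 arrays, and 7.69, 7.60 and 7.45 on the wild type arrays, and was named after its values were seen. With trend and robust settings its adjusted p was 0.0493. Klf3, a repressor of the same family, differed by -0.86 (limma adjusted p of 0.0699), and it passed in 2 of 16 alternatives, without K14ΔNLef1 replicate 1 (0.0458) and with array weights (0.00408). Over all genes 239 and 1296 passed in these 2 settings, against 131 in the main fit. Klf3 read 9.20, 9.52 and 9.52 on the K14ΔNLef1 arrays, and 10.21, 10.26 and 10.36 on the wild type arrays. The median of the Klf genes was -0.27, and -0.16 after each array was brought to an equal median. Over all genes the median change was 0.0542 under that scaling, and -0.0543 in the values as deposited.

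Of 26 other barrier and differentiation factors none passed, and 7 had an unadjusted limma p under 0.05, against 11.8% of all genes. Their median was -0.12, -0.05 without K14ΔNLef1 replicate 1, -0.02 with equal medians and 0.01 with quantile normalization. The 2 with the smallest p were Klf3 and the nuclear receptor Rora, which differed by -0.62 (limma adjusted p of 0.230). Of 32 hair follicle and hair lineage factors none passed, and 3 had an unadjusted p under 0.05. Runx3 differed by 0.71 (limma adjusted p of 0.201) and Dlx5 by -0.68 (limma adjusted p of 0.205). The median of these hair factors was 0.05, and 0.03 without K14ΔNLef1 replicate 1.

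Genes known to lie downstream of these factors were read by group. Of 21 genes of the p63 program, 1 fell, where 0.833% of all genes did. It was Igfbp3, whose protein binds insulin-like growth factors and which p63 is known to repress. Igfbp3 read 8.76, 8.89 and 8.70 on the K14ΔNLef1 arrays, and 10.12, 10.19 and 10.27 on the wild type arrays. Both groups were tight and far apart, with a difference of -1.41 (SE 0.16, limma adjusted p of 0.00983). It passed in 4 of 6 fits with 1 array left out, with adjusted p of 0.00807 to 0.0766. The median of the list was -0.22, and -0.11 without K14ΔNLef1 replicate 1.

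Of 28 genes of the cornified layer and late differentiation, some of them in the region that Satb1 is known to fold, 1 rose and 1 fell. Over all genes 0.328% rose and 0.833% fell. Krt2, a keratin of the upper suprabasal layers, was 7.73 ± 0.54 in K14ΔNLef1 and 5.95 ± 0.14 in wild type (SD, n = 3 each), with a limma adjusted p of 0.0240. Krt77, also a keratin, was 9.76 ± 0.42 in K14ΔNLef1 and 11.73 ± 0.06 in wild type (SD, n = 3 each), with a limma adjusted p of 0.0102. With 1 array left out Krt2 passed in 1 of 6 fits and Krt77 in 4 of 6. The list median was 0.04, 0.07 without K14ΔNLef1 replicate 1 and 0.15 with equal medians, and both keratins lie outside the gene complex of the cornified envelope.

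Of 21 barrier lipid genes, some of them linked to Gata3, none passed. An unadjusted limma p under 0.05 was found for 4, against 11.8% of all genes. Abca12, the lipid transporter of lamellar granules, differed by -1.75 (limma adjusted p of 0.0625). It read 6.77, 7.98 and 7.96 on the K14ΔNLef1 arrays, and 9.59, 9.38 and 8.99 on the wild type arrays. It passed in 8 of 16 alternatives, among them the fits without K14ΔNLef1 replicate 1 (-1.35) and with equal medians (-1.64), with limma adjusted p of 0.00284 to 0.242 over all of them. Aloxe3, a lipoxygenase of the barrier, differed by -0.78 (limma adjusted p of 0.186). The list median was -0.16, and 0.02 without K14ΔNLef1 replicate 1.

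Of 15 structural genes of the hair shaft and its inner sheath, the products of lineages that Gata3, Hoxc13 and Foxn1 direct, none passed. An unadjusted limma p under 0.05 was found for 3, against 11.8% of all genes. The inner root sheath keratin Krt27 differed by 1.22 (limma adjusted p of 0.144) and the hair keratin Krt32 by -1.16 (limma adjusted p of 0.0965). Krt27 passed in 6 of 15 alternatives, among them the fits without K14ΔNLef1 replicate 1 (1.60) and with equal medians (1.33), with limma adjusted p of 0.000568 to 0.412. Krt32 passed in 2 of 16. Of 18 bulge and upper follicle markers, 1 fell, where 0.833% of all genes did. It was Sostdc1, an inhibitor of BMP and Wnt signals, which fell by 1.83 (limma adjusted p of 0.0170). It read 7.91, 8.79 and 8.26 on the K14ΔNLef1 arrays, and 10.29, 9.92 and 10.25 on the wild type arrays, and it passed in 2 of 6 fits with 1 array left out.

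Of 23 chromatin regulators of epidermis none passed, and 1 had an unadjusted limma p under 0.05, against 11.8% of all genes. It was Uhrf1, a partner of the maintenance DNA methyltransferase, which differed by -0.86 (limma adjusted p of 0.0967). Next by p was Jarid2, of the Polycomb complex, with -0.52 (limma adjusted p of 0.517). The list mean stood at -0.77 relative to wild type on K14ΔNLef1 replicate 1, while replicates 2 and 3 stood at -0.05 and 0.03. The list median was -0.27, and 0.00 without replicate 1. In each of the lists with no passing gene, limma with trend and robust settings also called 0.

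**Figure D4:**
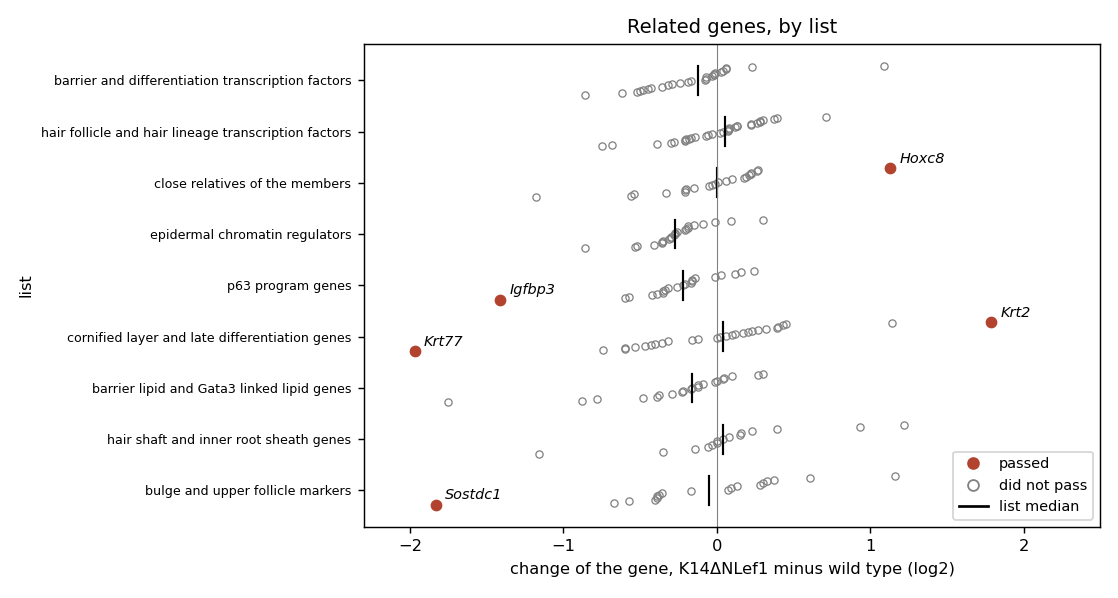
Change of each measured gene (K14ΔNLef1 minus wild type, log2, horizontal axis) in the 9 lists of related genes, with filled points for genes that passed and a line at each list median. Of the genes in the lists, 5 passed: Hoxc8 and Krt2 were higher, and Igfbp3, Krt77 and Sostdc1 were lower.

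Across these 9 lists, which hold 199 measured genes besides the 10 factors, 2 rose and 3 fell, where 0.328% of all genes rose and 0.833% fell. Without K14ΔNLef1 replicate 1, 3 rose and 5 fell, where 2.12% of all genes passed in either direction.

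Satb1 and Gata3 also mark lymphocytes, so markers of T cells were read beside them. T cell markers were measured for 19 genes, 17 of them higher in K14ΔNLef1 and none past the test. An unadjusted limma p under 0.05 was found for 6 of the 19, against 11.8% of all genes. The smallest p were those of Gzmc, a granzyme, at 1.72 (limma adjusted p of 0.231) and Ptpn22, a phosphatase of T cell signalling, at 1.66 (limma adjusted p of 0.235). Without K14ΔNLef1 replicate 1, Gzmc and Cd2 passed, at 2.34 and 1.22 (limma adjusted p of 0.0241 and 0.0447). On K14ΔNLef1 replicates 1, 2 and 3 the list mean stood at 0.01, 1.17 and 0.71 relative to the wild type mean, and on wild type replicates 1, 2 and 3 at 0.33, -0.18 and -0.15. Of the defining genes, Cd3e read 9.37, 10.63 and 9.83 on the K14ΔNLef1 arrays, and 9.57, 9.10 and 9.19 on the wild type arrays. T cell markers were highest on K14ΔNLef1 replicate 2. That array also had the highest Satb1 value of the K14ΔNLef1 group, 6.82, against 9.32 on the lowest wild type array. A match among 3 arrays can arise by chance, so nothing is read from it. Gata3 read 10.17 on K14ΔNLef1 replicates 2 and 3 alike. The part of T cells in the Satb1 and Gata3 signals was not tested.

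Markers of type 2 T cells and innate lymphoid cells, the lineages that Gata3 directs, had a median of 0.09 over 11 genes, with 7 higher. Of the 11, 1 passed, where 1.16% of all genes did. It was Icos, a co-stimulatory receptor, which rose by 1.27 (limma adjusted p of 0.0286). It read 7.93, 8.39 and 8.07 on the K14ΔNLef1 arrays, and 6.70, 7.11 and 6.76 on the wild type arrays. Icos passed in 1 of 6 fits with 1 array left out, and its adjusted p was 0.108 with the median of its probe sets. Il2ra, the interleukin 2 receptor chain, passed without K14ΔNLef1 replicate 1, at 1.01 (limma adjusted p of 0.0224).

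Keratinocyte markers were lowest on the array that stood apart. Of 14 measured, Trp63 among them, 13 were lower in K14ΔNLef1 and none passed. An unadjusted limma p under 0.05 was found for 2, Krt10 at -0.60 and Cdh1 at -0.44, against 11.8% of all genes. The list mean stood at -0.62, -0.26 and -0.08 relative to wild type on K14ΔNLef1 replicates 1, 2 and 3, and between -0.05 and 0.03 on the wild type arrays. The order of these 3 means is also that of Trp63, itself in the list, and of Klf4 and Grhl3 on the same arrays. It is not that of Satb1, Dlx3, Ovol1, Hoxc13, Foxn1 or Msx2, and Gata3 read 10.17 on both replicates 2 and 3. An order of 3 arrays can match by chance, so nothing is read from it. The part of keratinocyte share or RNA quality in these values was not tested. The list median was -0.33, and -0.20 without K14ΔNLef1 replicate 1.

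Of the other cell types, no marker of Langerhans cells, macrophages, monocytes, neutrophils, melanocytes, fibroblasts, endothelial or mural cells, sebocytes or Merkel cells passed limma. At an unadjusted p under 0.05 there were 6 of 12 sebocyte genes and 5 of 15 fibroblast genes, against 11.8% of all genes, and 0 to 3 genes in each of the other lists. The smallest p in the sebocyte list were those of Mgst1 at 1.76 (limma adjusted p of 0.0517) and Soat1 at 1.46 (limma adjusted p of 0.144), which passed in 8 and 5 of 16 alternatives. In the other lists the smallest p were those of Mfge8 (0.86) and Fcer1g (0.74) for Langerhans cells, and Tyr (0.60) and Tyrp1 (0.53) for melanocytes. They were Cd14 (-0.54) and S100a8 (1.97) for macrophages, monocytes and neutrophils, and Sparc (0.92) and Lum (-1.29) for fibroblasts. For endothelial and mural cells they were Acta2 (1.04) and Lyve1 (0.61), and for Merkel cells Chga (0.22) and Rab3c (-0.22). S100a8 read 5.44, 5.06 and 9.14 on the K14ΔNLef1 arrays, and its difference was 0.67 without K14ΔNLef1 replicate 3. Lum was read by 1 probe set, with means of 3.85 in K14ΔNLef1 and 5.14 in wild type. Of the 15 fibroblast genes 13 were higher in K14ΔNLef1. The medians of these lists ran from 0.00 for Merkel cells to 0.53 for Langerhans cells. The melanocyte and fibroblast medians were 0.12 and 0.14, and the sebocyte median was 0.35. Pdgfra, which defines fibroblasts, read 5.70, 5.38 and 5.35 on the K14ΔNLef1 arrays, and 5.18, 5.60 and 5.40 on the wild type arrays.

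**Figure D5:**
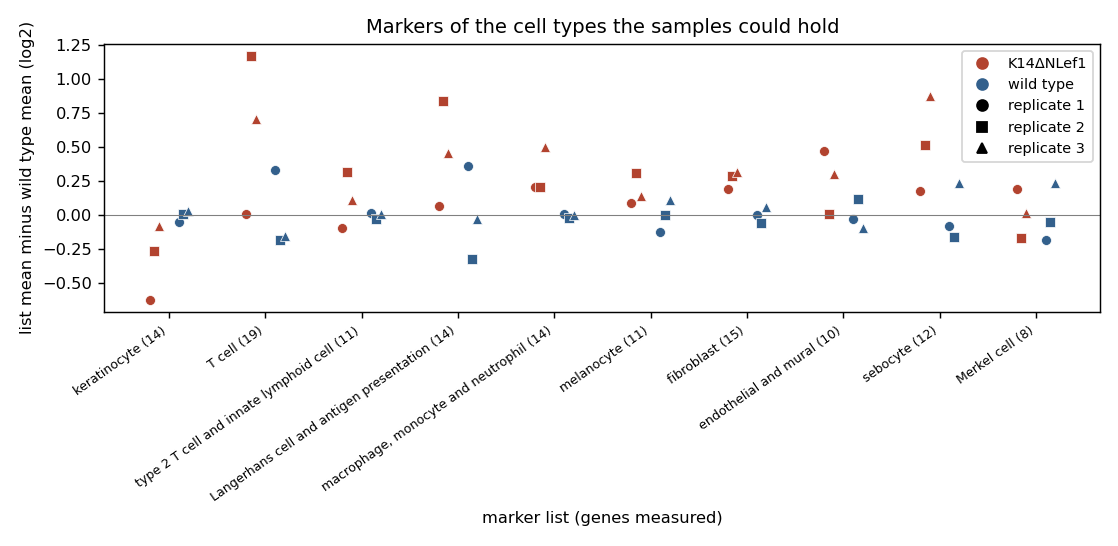
Mean of each marker list minus its wild type mean (log2, vertical axis) on the K14ΔNLef1 arrays (red) and the wild type arrays (blue), with the number of measured genes in brackets. T cell markers reach 1.17 and 0.71 on K14ΔNLef1 replicates 2 and 3 and 0.01 on replicate 1, and keratinocyte markers are lowest on replicate 1 at -0.62.

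The genes whose profile over the 6 arrays came nearest to each of the 3 were then listed. Likeness was the root mean square difference between profiles, each centred on its own mean, in log2 units over 6 arrays, among genes with at least 3 probe sets. Profiles were not scaled, so genes with a genotype difference of like size come out near. The 3 genes were chosen on that difference, so these lists are a description only. For Satb1 the nearest was the guidance factor gene Sema3d at 0.294, followed by Fam81a at 0.396, the chitinase gene Chit1 at 0.409, the alarmin gene Il33 at 0.418 and the lymphatic growth factor gene Vegfd at 0.427. Sema3d read 5.55, 6.16 and 5.67 on the K14ΔNLef1 arrays, and 9.43, 9.33 and 9.22 on the wild type arrays.

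The profile of Gata3 had closer neighbours. Epha2, an ephrin receptor kinase, differed from it by 0.0573, the carbonyl reductase gene Cbr2 by 0.0589, Paqr5 by 0.0685, Clasp2, which binds microtubule ends, by 0.110 and the ubiquitin ligase gene Trim2 by 0.111. Epha2 read 6.70, 7.02 and 7.09 on the K14ΔNLef1 arrays, and 8.24, 8.19 and 8.21 on the wild type arrays. For Klf4 the nearest were Uhrf1 at 0.0650, the G protein subunit gene Gng12 at 0.0665, the reductase gene Cyb5r3 at 0.0703, the tetraspanin gene Tspan5 at 0.0828 and the calcium pump gene Atp2b4 at 0.0900. Among the 10 factors themselves, Gata3 and Klf4 differed by 0.253, Satb1 and Gata3 by 0.854, and the nearest pair was Trp63 and Ovol1 at 0.120. Both genes of that pair had small differences between genotypes, -0.34 and -0.16, which by itself brings unscaled profiles near.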

How the data were processed

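RNA of 3 K14ΔNLef1 and 3 wild type samples, amplified with a whole-transcript kit, was hybridised to exon arrays, per the labels' protocols. The deposited table gives a linear intensity per probe set; RMA, Affymetrix Power Tools and build mm9 were used, per the submitters' processing notes, with versions and filters not given in the sources used here. Log2 was taken here. Of 114330 probe sets, 109751 carried 1 gene symbol, 834 several and 3745 none listed. Gene values are means over a gene's probe sets, without a filter on dim ones.

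All 11280 genes, and all probe sets, were fitted with limma 3.58.1 in R 4.3.3 (lmFit, eBayes, two-sided, Benjamini-Hochberg, threshold 0.05). The gene fit was also run on simulated data. Those data held no array that stands apart, so they cannot show how such an array affects the fit. Replicates are called biological in the labels, which name no animals or pairs. Satb1, Gata3 and Klf4 were chosen on their measured difference in these data. The 7 other factors, 9 lists of related genes and 10 marker lists were chosen from general knowledge, with earlier results of these data known. Named are the factors, up to 4 passing genes a list or else the 2 with the smallest p, Lef1, and the 5 nearest profiles. Outside this rule, the ends of each gene family's range and its smallest p, Hoxc genes, defining markers (Cd3e, Pdgfra), and Cd2 and Il2ra, which passed without K14ΔNLef1 replicate 1, were named once their values were known. The alternatives were quantile normalization, equal medians, probe set medians, brighter probe sets, a filter on dim genes, trend and robust settings, array weights, blocks and left-out arrays. Python 3.11.15, pandas 2.3.3 and matplotlib 3.10.9 were used. List genes without a probe set of their own were not analysed here.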

Additional observations from a re-analysis of the deposited data

How the results depend on the processing

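The differences of Satb1, Gata3 and Klf4 kept their sign in all alternatives run. With 1 array left out they ranged from -3.16 to -2.87, -1.42 to -1.20 and -1.08 to -0.76. The median of the probe sets moved Satb1 to -3.31 and Gata3 to -1.66, by more than the SD between replicates, and Gata3 was -1.16 with K14ΔNLef1 replicate 1 left out and the other arrays quantile normalized, a setting chosen after seeing the data. Of the 7 other factors 0 passed in the alternatives, with 1 array left out too, except 1 (Dlx3) with array weights. Over all genes 131 passed, 37 higher and 94 lower: 201 with quantile normalization (89 higher, 112 lower), 234 with equal medians (101 higher, 133 lower), 1296 with array weights, 238 in the added setting, and 28 to 239 with 1 array left out. In the 9 lists the 5 passing genes became 9 with quantile normalization, 9 with equal medians, 32 with array weights and 0 to 8 with 1 array left out. Of all probe sets 209 passed: 362 with quantile normalization, 376 with equal medians, 690 with array weights, 0 with the block by adjacent numbers and 1 to 190 with 1 array left out. With the replicate number as a block, 75 genes, 3 list genes and 0 probe sets passed; a block of 1 array per genotype cannot move a mean difference, only its error. The labels do not say whether these numbers pair the samples. The deviations of same-numbered samples from their group means correlated at -0.163, -0.172 and 0.036. Those of adjacent numbers in the descriptions correlated at -0.007, 0.199 and -0.075. With 3 arrays per genotype, 1 of them standing apart, these correlations cannot decide on a pairing. The sign turned for genes that never passed: Hoxc13 ranged from -0.39 to 0.20 with 1 array left out (0.20 without wild type replicate 1), Msx2 to -0.10 without K14ΔNLef1 replicate 2, -0.01 without wild type replicate 3 and -0.01 with brighter probe sets, and the Merkel cell markers Chga (-0.11 with probe set medians, -0.06 with array weights) and Rab3c (-0.51 to 0.21 with 1 array left out, 0.21 without wild type replicate 3). The cause of these shifts was not tested.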
